A study of Mus musculus with 2 samples.

Results

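Dense clusters of open chromatin are stretches of the genome in which open regions follow each other at short distances. They were chosen by measured positions: regions found in both replicates were joined into runs across gaps up to a fixed limit, and runs with more than 20 regions were kept. The widest gap inside any of the clusters was 12.48 kb. Of 28316 runs on chromosomes 1 to 19 and X, 174 met this rule, and they held 4781 of the 84373 shared regions (5.67%) in 26.2 Mb. Divided by the number of protein-coding genes they overlap in the GENCODE M21 annotation, 98 clusters were gene-poor (0 to 3 genes), 50 intermediate (4 to 9 genes) and 26 gene-rich (10 or more genes). Built from replicate 2 or replicate 1 alone, the gene-poor class had 150 and 198 clusters and the intermediate class 76 and 97.

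Open chromatin was measured by ATAC-seq, which cuts and tags DNA where a transposase can reach it, in T-helper 1 (Th1) primary cells of C57BL/6NJ mice. Th1 cells are CD4 T cells of the interferon-gamma producing type. The study has 1 group with 2 biological replicates and no treatment or control. Both replicates carry the same donor identifier, the sex was not collected, the age is unknown, and separate animals are not stated, so agreement between replicates may be partly technical. The names of the regions hold the words ASTARR and insert, which the labels do not explain, so the assay is called ATAC-seq as the labels have it. Of the marker genes used to check the label, 7 of 7 T cell markers and 5 of 5 Th1 markers had an open promoter, as did 0 of 3 hepatocyte, 1 of 3 neuronal, 1 of 5 myeloid, 2 of 5 B cell and 2 of 3 erythroid markers, beside 66.4% of all protein-coding genes. The replicates had 98768 and 91392 regions on the chromosomes used, and the read numbers behind them are not in the lists.

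Landscapes of different kinds can place many open regions close together. Genes that define a cell type often lie in long domains of enhancers, DNA stretches that bind transcription factors and raise transcription from a distance. Housekeeping genes, in contrast, often sit side by side in compact stretches, each with its own promoter, and many mammalian promoters are rich in the dinucleotide CG, which is scarce elsewhere in the genome.

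Single windows show the DNA of regions from both ends of the range. They were chosen from outside promoters in gene-poor clusters and from promoters in gene-rich ones, so the contrast in CG between them is one of location. The windows below reach 100 bp to either side of the summit in replicate 1 and come from the mm10 build (plus strand, RefSeq sequence GRCm38.p6), with each CG in capitals. The first 3 are the strongest regions outside promoters in the 3 gene-poor clusters with most regions. They lie between Tmem30b and Prkch (chr12:73554279-73554479, intergenic), between Ctla4 and Icos (chr1:60930536-60930736, intergenic) and in an intron of Bach2 (chr4:32406052-32406252). The last 2 are promoter regions of the 2 gene-rich clusters with most regions, at the neighbouring starts of Mrpl54 and Apba3 (chr10:81266621-81266821) and just before the start of Rbm5 (chr9:107771022-107771222). They were the strongest promoters there with no annotated UTR in the window, and stronger ones were passed over.
Between Tmem30b and Prkch: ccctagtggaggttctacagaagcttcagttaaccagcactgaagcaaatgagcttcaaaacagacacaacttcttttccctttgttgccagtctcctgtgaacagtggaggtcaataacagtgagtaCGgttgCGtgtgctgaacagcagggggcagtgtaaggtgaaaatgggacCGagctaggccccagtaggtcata
Between Ctla4 and Icos: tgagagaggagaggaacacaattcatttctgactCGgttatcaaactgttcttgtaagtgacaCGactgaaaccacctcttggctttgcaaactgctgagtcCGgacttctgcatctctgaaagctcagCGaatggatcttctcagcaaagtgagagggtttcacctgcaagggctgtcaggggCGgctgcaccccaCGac
Intron of Bach2: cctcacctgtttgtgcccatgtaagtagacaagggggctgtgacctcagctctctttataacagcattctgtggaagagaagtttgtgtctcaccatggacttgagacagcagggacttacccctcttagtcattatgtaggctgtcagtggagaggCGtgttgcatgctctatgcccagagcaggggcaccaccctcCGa
Starts of Mrpl54 and Apba3: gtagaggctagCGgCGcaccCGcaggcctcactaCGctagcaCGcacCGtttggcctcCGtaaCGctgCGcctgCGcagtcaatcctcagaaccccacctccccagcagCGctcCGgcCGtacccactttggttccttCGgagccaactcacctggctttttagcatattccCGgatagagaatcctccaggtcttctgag
Start of Rbm5: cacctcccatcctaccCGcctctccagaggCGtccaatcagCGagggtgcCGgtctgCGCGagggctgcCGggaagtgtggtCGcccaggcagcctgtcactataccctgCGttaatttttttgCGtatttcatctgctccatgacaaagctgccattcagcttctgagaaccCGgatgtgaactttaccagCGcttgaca
The windows of the gene-poor clusters held 3, 6 and 2 CG, and the promoter windows of the gene-rich clusters held 15 and 12. Among all shared regions, 87.7% of such windows held a CG at least once in replicate 1, with a median of 2 in regions outside promoters and 11 at promoters. Signal, the enrichment value that the authors' caller gave to each region, was used to pick these examples, so their similar values follow from the choice. It was 15.8, 15.04 and 12.0 in replicate 1 and 16.6, 14.2 and 11.9 in replicate 2 in the gene-poor clusters. In the gene-rich ones it was 14.9 and 14.6 in replicate 1 and 13.8 and 14.2 in replicate 2.

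Promoters made up a small part of the regions in gene-poor clusters and most of those in gene-rich clusters. Promoter regions were those no more than 1 kb from a transcript start of any gene type. Of all shared regions 25.5% were at promoters. Over the 4781 regions in dense clusters the share was nearly the same, 24.99%, but it was made of 14.1% in gene-poor, 29.2% in intermediate and 52.9% in gene-rich clusters. Counted in each replicate's own list, the share was 13.4% and 13.6% in gene-poor clusters, 28.0% and 28.2% in intermediate and 51.2% and 51.9% in gene-rich clusters. The replicates differed far less than the classes did, but the clusters were built from shared regions. Only 8.00% of replicate 1 and 4.18% of replicate 2 regions in them had no partner, so close values follow largely from the choice. More genes bring more starts, so part of the order of the classes is fixed by the way they were made, and no test is given.

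Single clusters kept to this order with some overlap. The promoter share had a median of 12.3% over gene-poor clusters (lowest 0%, highest 50%), 28.9% over intermediate ones (9.52% to 60.9%) and 51.9% over gene-rich ones (32.6% to 71.4%). In 6 gene-poor clusters it reached or passed the lowest gene-rich value, and 11 gene-rich clusters lay at or below the highest gene-poor value.

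**Figure D1:**
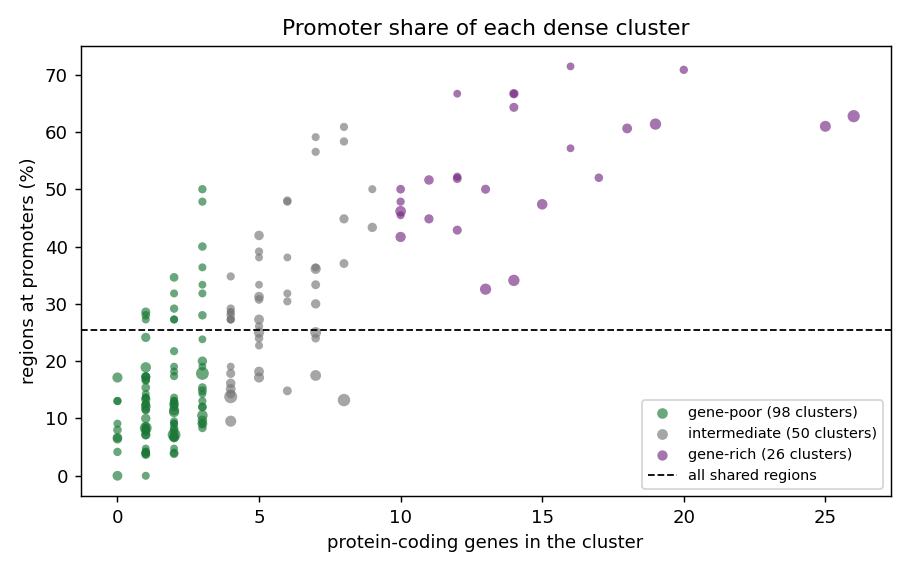
Promoter share of each dense cluster (vertical axis, percent of its shared regions) against the number of protein-coding genes it overlaps (horizontal axis). Each point is 1 of the 174 clusters, its area follows its number of regions, colours mark the 3 classes and the dashed line is the share over all shared regions, 25.5%. Gene-poor clusters spread from 0% to 50%, gene-rich ones from 32.6% to 71.4%.

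Of 2 gene-poor clusters without a promoter region, 1 lay in Prkca, which encodes protein kinase C alpha (chr11:108170249-108291735). All of its 22 regions lay in the body of Prkca, with median signals of 5.55 and 5.17 in replicates 1 and 2. The cluster at Znrf2, a gene for a RING-type ubiquitin ligase, had 3.70% at promoters. At the other end, 71.4% of 21 regions were at promoters in the cluster from Htra2 to Dctn1 (chr6:83053378-83166751, 16 genes), 70.8% of 24 from Chrnb1 to Cldn7 (chr11:69784723-69967128, 20 genes) and 66.7% of 30 from Gcdh to Tnpo2 (chr8:84893391-85038531, 14 genes), which holds Junb, an AP-1 subunit gene. The gene-rich clusters with the lowest shares were those from Prpf3 to Sv2a (32.6% of 43 regions) and from Kif22 to Itgal (34.1% of 44). The latter holds Spn and Itgal, genes of the leukocyte surface proteins CD43 and LFA-1 alpha chain.

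Densities at and outside promoters ran in opposite directions over the classes. Promoter regions numbered 2.70 per 100 kb of cluster in the gene-poor, 5.21 in the intermediate and 8.72 in the gene-rich class. Regions outside promoters went the other way, with 16.4, 12.6 and 7.75 per 100 kb. The total density was therefore close in the 3 classes, at 19.1, 17.8 and 16.5 regions per 100 kb. The rule selects for this total, so a cluster with few promoter regions passes only with many others, and the opposite course of the parts follows in part from the selection. Per cluster, the density outside promoters had a median of 16.8 per 100 kb in gene-poor clusters (9.28 to 32.2) and 7.38 in gene-rich ones (3.84 to 14.4), so the ranges overlapped.

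**Figure D2:**
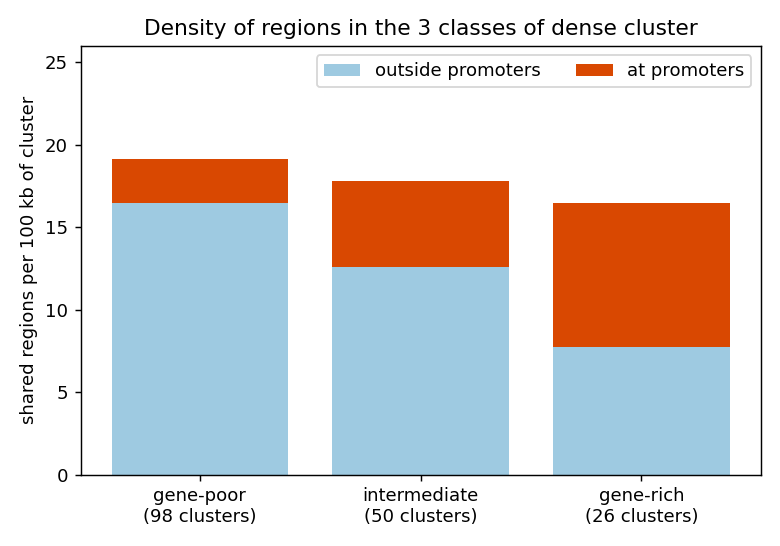
Shared regions per 100 kb of cluster (vertical axis) in the 3 classes, split into regions at promoters and outside them; each bar pools all clusters of the class over both replicates' shared regions, so it has no error bar. The part at promoters grows from 2.70 to 8.72 while the part outside promoters falls from 16.4 to 7.75.

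Regions outside promoters also lay in different places. Introns held 53.1% of all regions in gene-poor clusters, 30.9% in intermediate and 15.2% in gene-rich clusters, against 37.0% outside dense clusters. Intergenic regions made up 26.2%, 27.9% and 20.2%, and exonic ones 6.53%, 12.0% and 11.7%. These shares are of all regions, so they also move with the promoter share. Outside promoters alone, introns held 1375 of 2223 regions in gene-poor, 431 of 988 in intermediate and 121 of 375 in gene-rich clusters. Outside dense clusters it was 29456 of 59249. Of the same regions 679, 389 and 161 were intergenic, and 169, 168 and 93 were exonic. The median length of the overlapped genes was 59.6 kb in gene-poor, 15.04 kb in intermediate and 6.54 kb in gene-rich clusters, beside 17.4 kb over all protein-coding genes. A single gene body held the majority of the regions in 54 of the 98 gene-poor clusters, in 6 of the 50 intermediate ones and in 1 of the 26 gene-rich ones, where 12 of 23 regions lay in Mink1, a kinase gene. Clusters of similar span that overlap few genes tend to overlap long ones, so these values follow in part from the division by gene number.

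Promoter regions of the classes sat at different mixtures of starts. Of the 365 promoter regions in gene-poor clusters, 179 (49.04%) lay within 1 kb of the start of a protein-coding transcript, against 73.3% of 408 in intermediate and 81.8% of 422 in gene-rich clusters and 70.9% outside dense clusters. The remaining ones lay at starts of transcripts with no protein-coding annotation only. At these coding starts the ratio of observed to expected CG in the summit windows had medians in replicate 1 of 0.655 (gene-poor), 0.642 (intermediate) and 0.684 (gene-rich), below the 0.777 of coding starts outside dense clusters. Over all promoter regions the same ratio was 0.351, 0.456 and 0.617, and outside promoters it was 0.195, 0.205 and 0.232. Replicate 2 gave 0.340, 0.467 and 0.633 for all promoter regions.

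Shares of regions with the letters of known factor motifs differed between classes for some motifs and hardly for others. Motifs were searched on both strands of the same windows as fixed letters, and motifs can overlap. The ETS letters CCGGAAG were in 4.47% of coding-start regions in gene-poor clusters, 8.36% in intermediate and 11.9% in gene-rich clusters in replicate 1, and in 2.23%, 8.36% and 11.9% in replicate 2, beside 12.1% and 12.0% of coding-start regions over all shared regions. In the gene-poor class this rests on few regions, since it has 179 in all. The GC box letters GGGCGGG were in 30.7%, 35.5% and 34.2% of coding-start regions in replicate 1, near the 34.5% of all. Outside promoters, the AP-1 letters TGANTCA were in 29.01%, 25.9% and 26.9% of regions (30.8% over all shared regions outside promoters), and the RUNX letters TGTGGTT in 10.8%, 9.31% and 10.4% (10.8% over all). The IRF letters AANNGAAA were in 23.7%, 21.96% and 19.5% (26.2% over all). The CTCF letters CNAGGGGGC went from 1.12% through 1.92% to 3.47% in replicate 1 and from 1.12% through 1.42% to 3.47% in replicate 2, with 2.02% over all shared regions outside promoters. The gene-rich value also rests on few regions, since that class has 375 outside promoters. Such matches describe letters and are no evidence of binding.

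Single regions in dense clusters had lower signal than regions elsewhere. The median signal was 5.48 in replicate 1 and 5.35 in replicate 2 over dense clusters, against 7.01 and 6.79 outside them. By class it was 5.23 and 5.15 in gene-poor, 5.51 and 5.41 in intermediate and 5.98 and 6.06 in gene-rich clusters. Regions that stood alone in a run of 1 had medians of 8.45 and 8.14. Of gene-poor clusters, 94 of 98 had a median below that of all shared regions in replicate 1, and so did 20 of 26 gene-rich clusters.

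The order of the classes came mostly with their promoters. Outside promoters the median signal was 5.07 in gene-poor, 5.17 in intermediate and 5.38 in gene-rich clusters in replicate 1, and 4.98, 5.10 and 5.14 in replicate 2, so neighbouring classes differed by about as much as the replicates. The ratio of gene-rich to gene-poor medians was 1.14 and 1.18 in the 2 replicates over all regions, and 1.06 and 1.03 outside promoters. The second ratio went below 1 when the clusters were built from replicate 1 alone (0.952), joined across gaps of 25 kb (0.989) or kept with more than 10 regions (0.961). Both of these sets of medians lay below the 6.45 and 6.29 outside dense clusters. At coding starts the medians were 6.92, 7.07 and 7.72 in replicate 1, against 10.3 outside dense clusters, and at other starts 5.26, 5.40 and 5.24 against 6.65.

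The −log10 p that the caller gave to the same regions kept the order of the classes over all regions. Unlike signal, it was higher in the intermediate and gene-rich classes than outside dense clusters. Its median was 43.6 in gene-poor, 58.4 in intermediate and 69.9 in gene-rich clusters in replicate 1, and 36.9, 47.0 and 61.5 in replicate 2, against 44.1 and 37.8 outside dense clusters. Outside promoters it was 40.2, 44.7 and 42.7 in replicate 1, each above the 36.0 outside dense clusters. At promoters it was 86.0, 110.2 and 122 in replicate 1 and 79.7, 95.4 and 108 in replicate 2, below the 115 and 96.8 outside dense clusters in the gene-poor and intermediate classes and above them in the gene-rich class. Among the 10% of all shared regions with the highest signal were 3.13%, 4.66% and 6.90% of the regions in the 3 classes in replicate 1, and among the 10% with the highest −log10 p 7.23%, 11.7% and 19.8%. The reference against which the signal was computed is not stated.

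**Figure D3:**
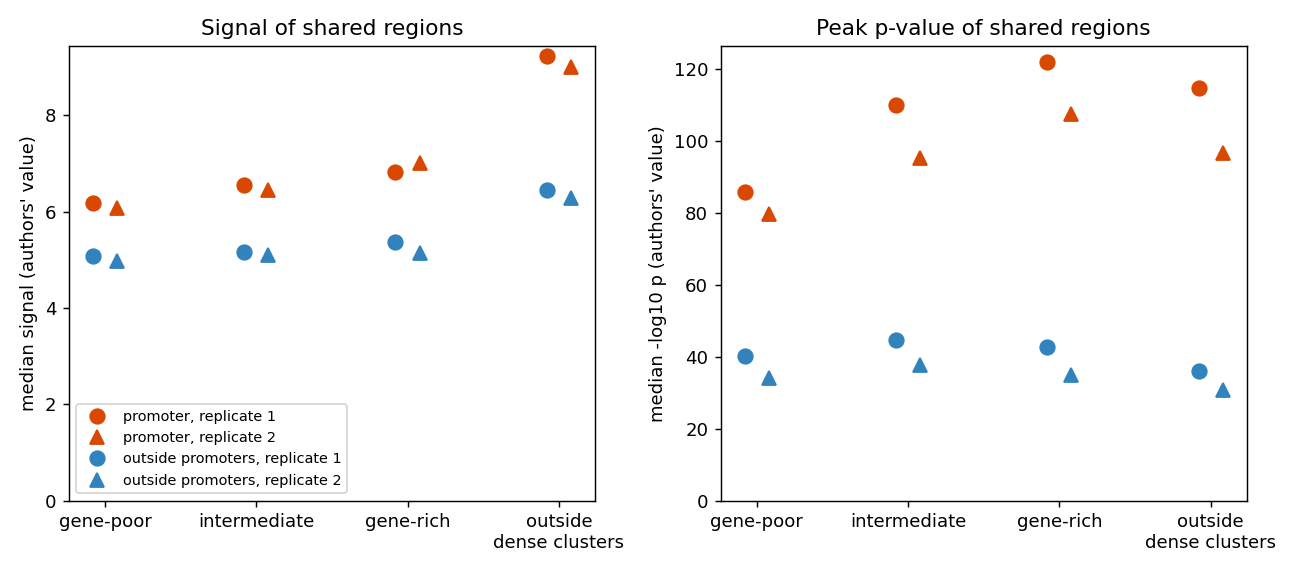
Median signal (left) and median −log10 p (right) of shared regions in gene-poor, intermediate and gene-rich clusters and outside dense clusters; orange marks are promoter regions, blue marks regions outside promoters, circles replicate 1 and triangles replicate 2. Signal was lower in every class of dense cluster than outside at both locations, while −log10 p outside promoters was higher in every class than outside dense clusters.

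Signal moved with the number of close neighbours everywhere in the genome. Over all shared regions, the median signal in replicate 1 was 8.96 with no other shared summit within 5 kb, 5.98 with 1, 4.37 with 2, 3.56 with 3 and 2.89 with 4 or more. Within dense clusters the same steps gave 8.72, 5.45, 3.95, 3.30 and 2.69, and outside them 8.97, 6.03, 4.43, 3.60 and 2.996. At equal numbers of neighbours, with all locations pooled, regions in and outside dense clusters thus differed by 0.26 to 0.57 in replicate 1. This was less than the 1.53 between their overall medians. Promoter regions lay further apart with few neighbours, at 10.3 in and 11.5 outside dense clusters with none and 6.03 and 6.97 with 1. With 2 they were at 4.50 and 4.76, and with 3 at 3.64 and 3.58. Regions outside promoters were at 7.73 and 7.89 with none, and at 5.22 and 5.81 with 1. Of regions in dense clusters 70.7% had a neighbour this close, as did 45.5% of the others, and by class the share was 73.8%, 69.1% and 63.5%. Why signal goes down with neighbours was not tested.

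**Figure D4:**
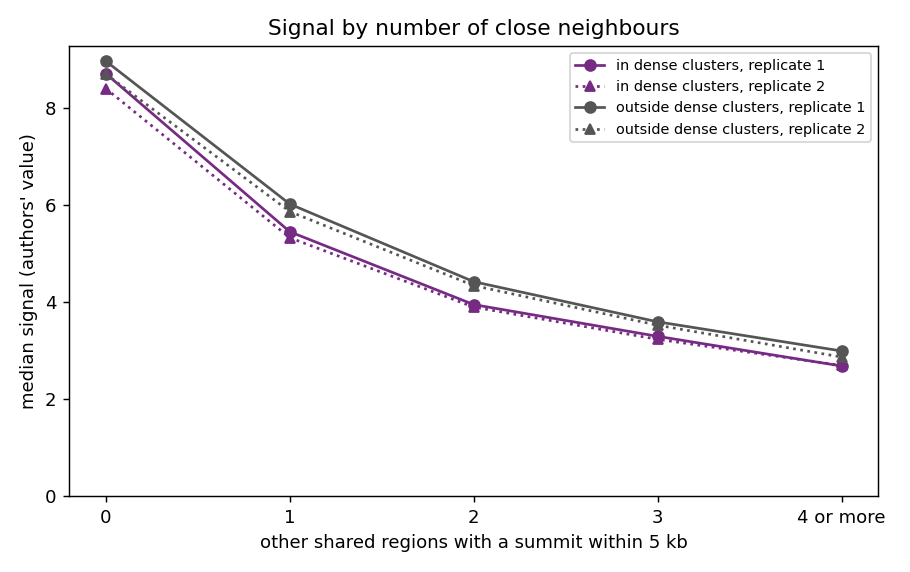
Median signal (vertical axis) by the number of other shared regions with a summit within 5 kb (horizontal axis), for regions in dense clusters (purple) and outside them (grey), with circles for replicate 1 and triangles for replicate 2. All lines fall, from 8.72 to 2.69 in dense clusters and from 8.97 to 2.996 outside in replicate 1, and lie close together. Promoter regions and others are pooled.

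The replicates gave much the same picture of the clusters. Spearman's rank correlation of signal between replicates, across regions of each class, was 0.966, 0.977 and 0.982 in gene-poor, intermediate and gene-rich clusters. Both replicates' values come from regions found in both lists, and regions are not independent replicates. Signals agreed within 1.5-fold for 98.5%, 99.1% and 99.5% of the regions. Inside dense clusters 8.00% of replicate 1 regions and 4.18% of replicate 2 regions had no partner in the other list, against 13.4% and 6.98% of all regions, although the choice of clusters by shared regions favours this.

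The 8 gene-poor clusters with most regions held 35 to 56 regions each. The cluster of Prkch, which encodes protein kinase C eta, held 56 regions (chr12:73513481-73801507), 40 of them in the gene body, with median signals of 5.05 and 4.69. The cluster of Cd28, Ctla4 and Icos, genes of co-stimulatory and co-inhibitory receptors, also held 56 regions (chr1:60744187-61004306), but only 9, 6 and 6 of them lay in the 3 genes. The other 35 were outside these gene bodies, and the strongest, at 15.04 and 14.2, was the intergenic region between Ctla4 and Icos whose sequence is given above. In the Bach2 cluster (chr4:32230759-32466463), 47 of 48 regions were in the body of Bach2, a repressor gene of T cell differentiation. Here 8.33% of regions were at promoters, and the strongest promoter region in the cluster, at 8.07 and 7.78, was weaker than the strongest intronic one, at 12.0 and 11.9.

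The next largest gene-poor clusters also had most regions outside promoters. The cluster from Serbp1 to Il23r (chr6:67266164-67459885) held 38 regions, 20 of them in Il12rb2, the gene of an interleukin-12 receptor subunit that Th1 cells need, 6 in Il23r and 6 in Serbp1. Of 37 regions at Rbpj, the gene of the DNA-binding factor of Notch signalling, 33 lay in the gene (chr5:53479455-53672770), and its strongest intronic region, at 16.1 and 15.6, exceeded its strongest promoter region, at 7.14 and 6.92. Lef1, a gene of a TCF/LEF family factor, held 24 of 36 regions in a cluster shared with Hadh (chr3:131083833-131272570), where the strongest promoter region was that of Hadh, a fatty acid oxidation gene, at 17.0 and 16.0. At Ugcg, the gene of glucosylceramide synthase, and Susd1 (chr4:59148982-59341022), 7 and 8 of 35 regions lay in the genes.

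Dense clusters without a protein-coding gene numbered 9. The largest held 35 regions at the non-coding RNA gene Lncpint (chr6:31032823-31233857), with Klf14 73.7 kb to its left and Mkln1 165 kb to its right as the nearest coding genes. A cluster of 31 regions overlapped Pvt1 (chr15:62129274-62306450), a long non-coding RNA gene next to Myc, which lay 139 kb away, and a second one of 24 regions began 788 kb from Myc (chr15:62778696-62850064). A cluster of 33 regions right of Chd7 (chr4:8888010-9050133) had no region at any annotated start, while its strongest region was among the strongest seen here, at 17.7 and 18.4. A cluster of 30 regions lay 34.96 kb from Id2 (chr12:25132104-25281891), the gene of an inhibitor of E proteins, one of 22 lay 24.1 kb from Rbpj (chr5:53352709-53442013), and one of 23 lay 113 kb from Spdye4c and 205 kb, on the other side, from Bcl2l11 (chr2:128367375-128477789), the gene of the pro-apoptotic protein Bim. The remaining 2 lay 15.1 kb from Nabp1 (chr1:51493521-51600930, 23 regions) and at Trerf1 (chr17:47104293-47235231, 25 regions), which has no protein-coding annotation in M21. Nearness in the genome is a position and says nothing of which gene a region acts on.

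Intermediate clusters mixed these patterns. The one with most regions of all, 58, lay at Ptpn1, a tyrosine phosphatase gene, and Cebpb (chr2:167675101-168016458). Ptpn1 held 12 of its regions and Cebpb 1, and 13.8% were at promoters. The cluster from Clec16a to Rmi2 (chr16:10621534-10906012) had 53 regions, of which 24 lay in Clec16a, 12 in Rmi2 and 2 in Socs1, the gene of an inhibitor of cytokine signalling. It also overlapped the protamine genes, sperm-specific, of which Prm2 and Prm3 had no open promoter. Ubac2 held 29 of 42 regions in a cluster with Gpr18 and Gpr183, a receptor gene inside Ubac2's span (chr14:121895561-122079938), and the promoter share there was 9.52%. Clusters of 40 regions lay at Tnip1 and Anxa6 (chr11:54902581-55165162) and at Larp1, Igtp and Irgm2 (chr11:57992767-58239787), the last 2 being interferon-inducible GTPase genes. Il2rb, the gene of an interleukin-2 receptor subunit, held 5 of 36 regions in a cluster with Rac2 (chr15:78422175-78632499), and Ccr7, the gene of a lymph node homing receptor, held 3 of 35 in a cluster with Smarce1 (chr11:99088320-99311156).

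Gene-rich clusters ran over many genes with few regions each. The cluster from Map2k2 to Nfic (chr10:81127406-81414909) had 51 regions over 26 genes, among them Eef2, the gene of translation elongation factor 2, and no gene held more than 6 regions. Promoters took 62.7% of its regions. The cluster from Cacna2d2 to Rbm6 (chr9:107514521-107780331) had 44 regions over 19 genes, 61.4% of them at promoters, with 5 regions in Gnai2, a G protein subunit gene of lymphocyte migration. The cluster from Nploc4 to Aspscr1 (chr11:120425995-120680237) had 41 regions over 25 annotated genes, with 61.0% at promoters and 5 regions in Mafg, the gene of a small Maf factor. Clusters from Sema4a to Khdc4 (chr3:88440466-88686568, 39 regions) and from Ctdsp2 to Dtx3 (chr10:126966646-127196105, 38 regions), the last with Cdk4, had 46.2% and 47.4% at promoters.

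The Gimap cluster (chr6:48626815-48788209) stood apart in its class. It holds all 8 annotated Gimap genes, which encode GTPases of lymphocyte survival, and all 8 had an open promoter. Its 36 regions had the lowest median signal of the gene-rich class, 3.87 and 3.60, and 41.7% of them lay at promoters. The next lowest were those from Notch4 to Tnxb, at 4.41 and 4.19, and from Mink1 to Camta2, at 4.69 and 4.36. The highest medians of the class were found from Traip to Bsn (chr9:107950484-108164373), at 8.67 and 8.54, from Prpf3 to Sv2a, at 7.80 and 7.70, and from Irf7 to Tspan4, at 7.74 and 7.41. In the gene-poor class the lowest median in replicate 1 was that of the cluster from Hif1a to Snapc1, with 3.28 and 3.06. In replicate 2 the lowest was that of the Bcl11b cluster, with 3.29 and 2.73 (22 of 25 regions in the gene of this T cell factor, chr12:107908458-108009554). The highest in both replicates was that of the Stx11 cluster, with 7.49 and 7.88 (chr10:12888079-13035568). In the intermediate class the extremes were the cluster of Il2ra, the interleukin-2 receptor alpha gene, with 2.88 and 2.85 (chr2:11582728-11706338), and that from Pacsin2 to Scube1, with 8.67 and 8.10 (chr15:83403288-83607877).

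Dense clusters overlapped 817 of 21755 protein-coding genes, 3.76%, and the T cell lists held larger shares of their members. Of 29 T cell identity genes, 14 lay in a dense cluster, 10 of them in a gene-poor and 4 in an intermediate one. Of 17 genes of naive and memory T cells it was 9, with 6 in gene-poor and 3 in intermediate clusters. Of 30 Th1 genes it was 9, with 3 in each class. Lists of other T helper types had 5 of 20 (Treg), 3 of 16 (Tfh), 2 of 17 (Th17) and 2 of 19 (Th2). Counts were 5 of 31 for T cell activation, 3 of 11 for inhibitory receptors, 2 of 18 for chemokine receptors and 5 of 12 for MHC class I and antigen processing. Counts of 2, as for Th17, Th2 and chemokine receptor genes, are too small to set apart from the 3.76%. The lists were made with results of these data known. Some genes stand in more than 1 list and neighbouring genes can share a cluster, so the counts are a description. Long genes overlap a cluster more readily, and the median length was 40.7 kb for T cell identity, 30.6 kb for naive and memory and 6.64 kb for Th1 genes, against 17.4 kb for all protein-coding genes. Clusters are made of open regions, and of the 14452 genes with an open promoter 763 overlapped one. All 29 T cell identity, all 17 naive and memory and 29 of 30 Th1 genes had an open promoter, against 66.4% of all protein-coding genes. The 3.76% is therefore a low base for these lists.

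Counts for the lists of other cell types and of cell division were likewise too small to set apart from the 3.76% of all protein-coding genes. No B cell (18), NK cell (14), hepatocyte (15), cell cycle (20) or SLAM family (8) gene lay in a dense cluster. Other lists gave 1 of 27 housekeeping genes (Actb), 2 of 23 myeloid (Cebpb, and Elane with no open promoter), 1 of 16 erythroid and mast cell (Klf1) and 1 of 20 neuronal genes (Eno2). Families that lie in tandem arrays differed. Of 67 replication-dependent histone genes, 15 lay in dense clusters, all of the gene-rich class. Array neighbours can share a cluster, so this is no count of separate clusters. By contrast, 0 of 1135 olfactory receptor, 0 of 57 clustered protocadherin and 0 of 39 Hox genes lay in a dense cluster. Of these genes 36, 15 and 32 had an open promoter, so the absence of the first 2 families follows in part from the choice of clusters. Of 394 genes named Zfp, 4 were in one, as were 5 of 34 H2 genes of the MHC, 4 of 19 Ms4a genes and 2 of 110 keratin genes, but 0 of 9 Slfn and 0 of 10 Gbp genes.

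**Figure D5:**
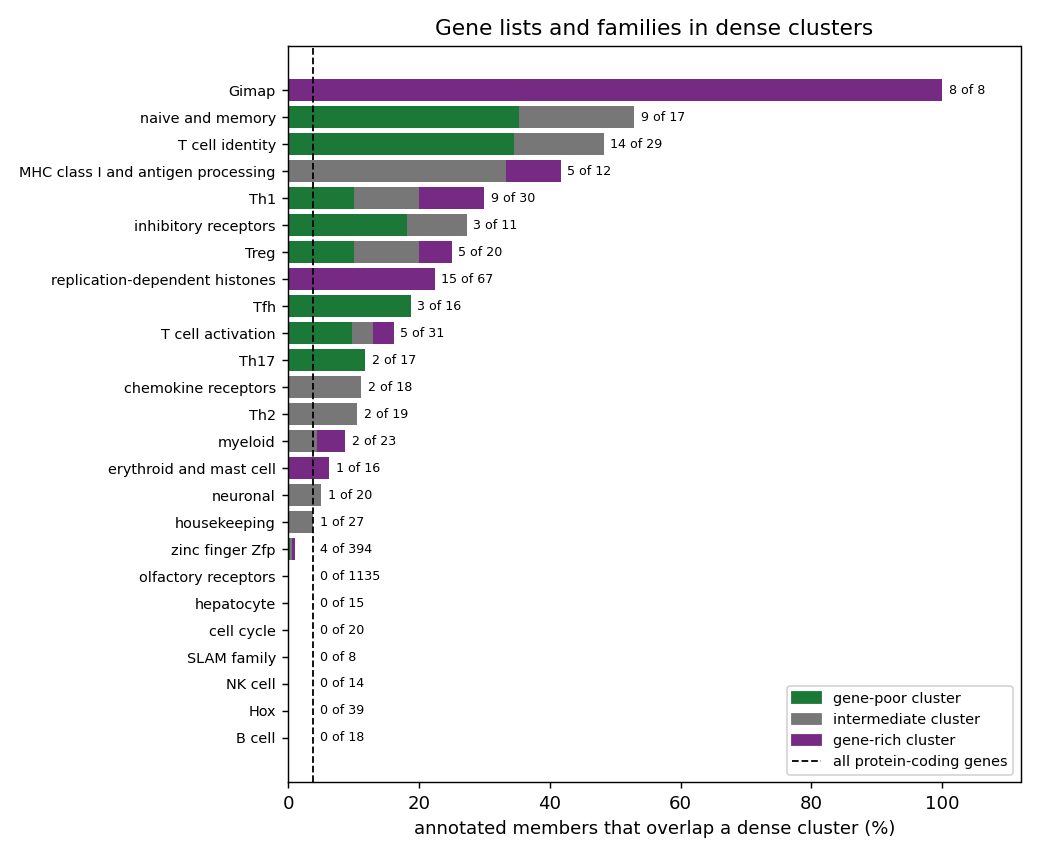
Share of the annotated members of each gene list or family that overlap a dense cluster (horizontal axis, percent), with the part in gene-poor, intermediate and gene-rich clusters in green, grey and purple, and counts at the bars. The dashed line is the 3.76% of all protein-coding genes; T cell identity and naive and memory genes reached 14 of 29 and 9 of 17, largely in gene-poor clusters, while histone and Gimap genes were in gene-rich ones.

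A member of the 9 T cell lists was found in 31 of the 174 clusters, namely 18 of 98 gene-poor, 10 of 50 intermediate and 3 of 26 gene-rich ones. The same count was not made for other sets of genes, so these numbers are a description only. Transcription factor genes of this group held very different parts of their clusters. Foxp1 held all 29 regions, Tox all 21, Bcl11b 22 of 25, Ikzf1 20 of 30 and Lef1 24 of 36, but Runx3, the only gene of its cluster, held 7 of 24, Irf4 4 of 33 and Tcf7 7 of 30. Of signalling genes, Fyn held 30 of 33 regions, Prkcq 19 of 26, Cd247, which encodes the CD3 zeta chain, 16 of 23 and Lcp2, an adaptor gene, 7 of 23. Ifng, the signature cytokine gene of Th1 cells, held 2 of the 25 regions of its cluster (chr10:118435096-118562044), which also covers its antisense neighbour Ifngas1. Cd69 held 3 of 22 regions. Cd5 and Cd6, neighbouring T cell surface genes, held 1 and 9 of 22.

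Th1 genes in the other classes sat among neighbours. Il12rb1, the gene of the other interleukin-12 receptor subunit, held 4 of 24 regions in an intermediate cluster with a promoter share of 58.3%, and its own promoter had signals of 3.82 and 3.91. Tbx21, the gene of the Th1 master regulator T-bet, held 5 of 22 regions in an intermediate cluster with 4 genes (chr11:97065697-97162213), and its promoter had signals of 5.48 and 5.65. Lta, Tnf and Ltb, neighbouring cytokine genes, shared a gene-rich cluster of 29 regions over 11 genes (chr17:35164357-35275380) with promoter signals of 6.02 and 6.48, 2.10 and 2.29, and 5.05 and 5.15. The 3 CD3 genes Cd3d, Cd3e and Cd3g shared an intermediate cluster of 22 regions with a promoter share of 59.1% (chr9:44965076-45099053), and their promoters reached 7.05 and 6.89, 9.06 and 9.71, and 6.93 and 6.45. The promoter of Runx3, a factor of Th1 and cytotoxic cells, reached 11.0 and 10.5 and that of Fyn 13.2 and 13.0.

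Nearly every gene in a dense cluster had an open promoter in the sense of a shared region no more than 1 kb from a start. It was 157 of 163 genes in gene-poor clusters (96.3%), 266 of 282 in intermediate (94.3%) and 341 of 373 in gene-rich ones (91.4%), together 763 of 817, since Nfic lies in a gene-rich and in an intermediate cluster. Over all protein-coding genes the share was 66.4%. Clusters were chosen for their many open regions, so a high share follows from the choice. Among all genes with an open promoter, the median percentile of promoter signal was 38.0 in gene-poor, 30.3 in intermediate and 34.1 in gene-rich clusters in replicate 1, and that of −log10 p was 51.5, 44.1 and 49.7.

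The 54 genes without an open promoter included genes of tissues far from T cells. The 32 in gene-rich clusters included Elane and Cfd of myeloid and fat cells, Lhb of the pituitary, Pde6g of photoreceptors, Ifitm5 of bone, and Hist1h1d as the single histone gene of 15. The 16 in intermediate clusters included Tnnt2 of the heart, Krt24, Prm2 and Prm3, and Il10, the interleukin-10 gene, whose body held 2 regions of its cluster. In gene-poor clusters 6 genes lacked one, among them Nid1, a basement membrane gene, and Sf3b5, a splicing factor gene. A strong region in an exon of Sf3b5 (16.0 and 16.1) lay beyond 1 kb of its annotated start.

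Clusters were unevenly spread over chromosomes. Chromosome 11 had 22 of the 174 (12.6%) with 7.24% of shared regions, and the X chromosome had none with 1783 regions (2.11%), its longest run holding 16. Gene-rich clusters were most frequent on chromosomes 7 and 10, with 5 each. Within 100 kb of each other lay 8 pairs of dense clusters, among them Prkch and Hif1a (65.6 kb apart), the Rbpj cluster and its gene-free neighbour (37.4 kb), and 2 gene-rich clusters that share Palm (17.7 kb). Just outside the rule were 36 runs of 20 regions, and just inside 19 runs of 21. Their promoter shares were 29.9% and 31.1%, and their median signals in replicate 1 were 5.68 and 5.71.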

How the data were processed

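ATAC-seq regions of Th1 cells (1 group, 2 biological replicates, named as the labels number them) were taken from the deposited region lists, 1 per replicate, in mm10 per the labels. The authors deposited a signal value, −log10 p, −log10 q and a display score for each region, and its summit offset (another unit, in bp). The sources used here name no aligner or caller. The smallest deposited −log10 q was 1.01 in replicate 1 and 1.00 in replicate 2. The score was not used.

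Regions overlapping by 1 bp were joined into shared regions with the highest signal in each replicate, and joined further into runs with gaps of 12.5 kb or less; 107 and 96 regions off chromosomes 1 to 19 and X were left out. Genes and starts came from GENCODE M21, counted by annotation identifier. Motifs and base composition came from 201 bp windows around summits. The scripts used Python 3.11.15, numpy 2.4.6, scipy 1.17.1, pysam 0.24.0 and matplotlib 3.10.9, and run building was tested on simulated data. Members and lists were chosen with earlier results of these data known. Named clusters are, per class, the 8 with most regions and the 3 with the highest and lowest median signal, then those with extreme promoter shares, those without a gene, and those with T cell list members; 1 cluster that this rule names is not reported here. Other clusters and genes were named after their values were seen. With 1 group, no test was made. The order of medians is given per replicate.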

Additional observations from a re-analysis of the deposited data

How the results depend on the processing

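The number of dense clusters follows the rule closely. With gaps of 5 kb it was 1 and with 25 kb 894; with more than 10 regions it was 1044 and with more than 30 it was 38; with a −log10 q of at least 5 it was 109. Built from a single list it was 255 (replicate 2) and 328 (replicate 1). In a gap of 5 kb no gene-poor or gene-rich cluster was left, so no share or ratio exists there. Of the class counts and open promoter shares under the alternatives, 26 stayed within 1.5 times the main count or the binomial interval and 23 did not. The interval treats genes as independent although they share clusters and libraries, so it is a yardstick and no test. Of the total number, the promoter shares of regions and the signal ratios, 12 stayed close to the main value, 37 moved and 3 ratios reversed. Close meant within 1.5 times for the number and within the standard deviation of the 2 replicates for the others.

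The promoter share of gene-poor clusters stayed below that of gene-rich clusters in each alternative that gave both. The pairs were 13.7% and 42.4% with gaps of 25 kb, 17.6% and 57.99% with more than 10 regions, 11.1% and 50% with more than 30, 15.02% and 53.98% with an overlap of 50% of both regions, and 13.3% and 51.3% with the q limit. A promoter window of 500 bp gave 11.5% and 47.9%, one of 2.5 kb 22.4% and 68.4%, and coding starts alone 6.92% and 43.3%. Counting genes that start inside the run gave 14.6% for gene-poor clusters. Single lists gave 13.7% to 14.1% and 50.8% to 53.3%.

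The ratio of median signal, gene-rich over gene-poor, was 1.10 (25 kb), 1.08 (more than 10 regions), 1.35 (more than 30), 1.20 (50% overlap), 1.18 (q limit), 1.13 to 1.14 (single lists) and 1.64 with −log10 p. Outside promoters it reversed to 0.989 with gaps of 25 kb and to 0.961 with more than 10 regions, and single lists gave 0.952 to 1.00; the cause was not tested. Elsewhere it was 1.23 (more than 30), 1.08 (50% overlap), 1.02 (500 bp, as a mean over replicates) and 1.09 (2.5 kb).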
